A study of Cavia porcellus with 11 samples.

Results

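The genes described here encode the machinery of pyroptosis and necroptosis, with the caspases that start or gate both: Casp1, Casp8, Gsdmd, Gsdme, Nlrp3, Pycard, Ripk1, Ripk3 and Mlkl. They were chosen by name, as rows of the deposited guinea pig (Cavia porcellus) table whose gene symbol matched, and 7 of the 9 were found among 21481 genes. Casp1 and Pycard had no row under these symbols. A row that the deposited table describes as caspase-1 (LOC100725217) and another described as the CARD-containing speck protein ASC, the product of Pycard (LOC100734858), are given beside the 7 genes. These rows were identified from their descriptions after the table was seen, not by the rule.

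Gene expression was measured by RNA-seq of cochleae in 3 groups. The labels name 3 libraries with cisplatin plus STB treatment, 4 with cisplatin treatment and 4 without treatment. Cisplatin is a platinum chemotherapy drug that damages the inner ear. The second agent is written only as STB in the labels, and Schisantherin B, a lignan of Schisandra, stands in the title of the series. STB was always combined with cisplatin, so its effect without cisplatin was not analysed here. The sources used here do not state strain, dose, time after treatment, age, sex or how many animals a library represents. Since separate animals are not stated either, p-values compare the groups with a spread among libraries that may be only technical.

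Library totals lay between 14338894 and 18508296 counts. Coch, which encodes the abundant inner ear protein cochlin, made up 2.79% to 4.97% of each library's counts, and 14 of 15 hair cell markers, all 11 supporting cell markers and all 14 spiral ganglion neuron markers had a row. In each group Atoh1, Hes5 and Th were the single genes of these lists at 0. Because whole tissue was sequenced, fewer cells of a type and less RNA per cell cannot be told apart.

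Pyroptosis is a lytic cell death in which an inflammasome, built from a sensor such as NLRP3, the adaptor ASC and caspase-1, leads to cleavage of gasdermin D, whose fragment forms pores in the plasma membrane. Necroptosis is a second lytic death, in which RIPK1 and RIPK3 assemble and RIPK3 phosphorylates MLKL, which then permeabilises the membrane. Caspase-8 cleaves RIPK1 and RIPK3 and so holds necroptosis back, and it can also start apoptosis. These steps, described mainly in mouse and human cells, run through assembly, cleavage and phosphorylation of proteins, none of which mRNA counts measure.

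No member gene passed the test with cisplatin or with cisplatin plus STB. Of the 7 genes found, 6 passed the filter on low counts and Mlkl did not. Of these 6, 0 were called in cisplatin against untreated by edgeR's quasi-likelihood test with Benjamini-Hochberg adjustment over the 15384 genes tested, where 0.0% of all genes were called. The count was 0 of 6 in cisplatin plus STB against cisplatin, where 0.0195% of all genes were called, and 0 of 6 in cisplatin plus STB against untreated, where 0.0% were called. At an unadjusted p under 0.05 the members counted 1, 0 and 0 in the same 3 comparisons, beside 9.71%, 9.03% and 1.07% of all genes. DESeq2 also called 0 of the 6 members in each comparison, and called 33, 100 and 0 genes of all those tested. In no comparison did the libraries of a member separate without overlap, which 6.06% of all genes did in cisplatin against untreated, 7.54% in cisplatin plus STB against cisplatin and 2.41% in cisplatin plus STB against untreated.

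The median fitted log2 fold change of the 6 genes was -0.14 for cisplatin against untreated, with 1 positive and 5 negative, beside a median of -0.0056 over all genes tested. In cisplatin plus STB against cisplatin it was 0.15, with 3 positive and 3 negative, and for cisplatin plus STB against untreated 0.05, beside a median of 0.0 over all genes in both. The first 2 of these comparisons share the cisplatin libraries, and the first and the third share the untreated libraries.

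**Figure D1:**
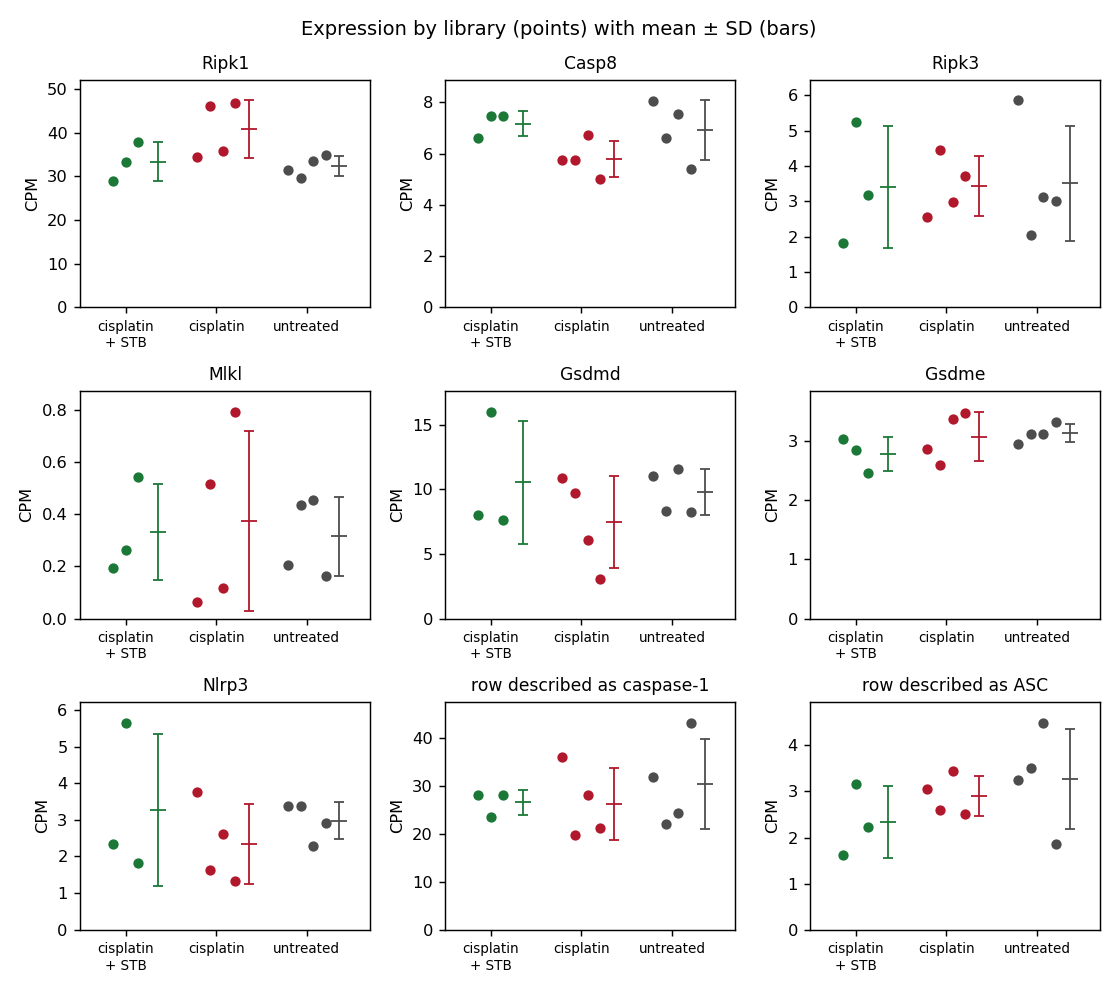
Expression of the 7 genes found by symbol and of the rows described as caspase-1 and ASC, in CPM, counts scaled to a common library size (y axis, starting at 0 in each panel), by group (x axis). Each point is a library, in replicate order, and the bars give the mean ± SD (n = 3 for cisplatin plus STB, n = 4 for cisplatin and for untreated). The groups overlap in every panel, and the cisplatin libraries of Ripk1 reach 46.8 CPM while the highest untreated library is at 34.8 CPM.

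On the length-scaled unit of the deposited table, FPKM, the members covered a wide range of levels. Ripk1 had the highest median over the 11 libraries, at 8.41 FPKM, followed by Gsdmd at 4.09, Casp8 at 2.41, Ripk3 at 1.77, Gsdme at 0.72, Nlrp3 at 0.45 and Mlkl at 0.08 FPKM. Ripk1 lay above Gsdmd in 11 of 11 libraries and Ripk3 above Gsdme in 11 of 11. Gsdmd lay above Casp8, Gsdme above Nlrp3 and Nlrp3 above Mlkl in 10 of 11 libraries each. In the remaining library of the last pair, cisplatin replicate 4, Nlrp3 and Mlkl were both at 0.22 FPKM. Casp8 and Ripk3 were the neighbours whose order was kept least, with Casp8 above Ripk3 in 7 of 11 libraries. The caspase-1 row had a median of 15.6 FPKM, above the median of each member found by symbol, and the ASC row had 3.96 FPKM.

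**Figure D2:**
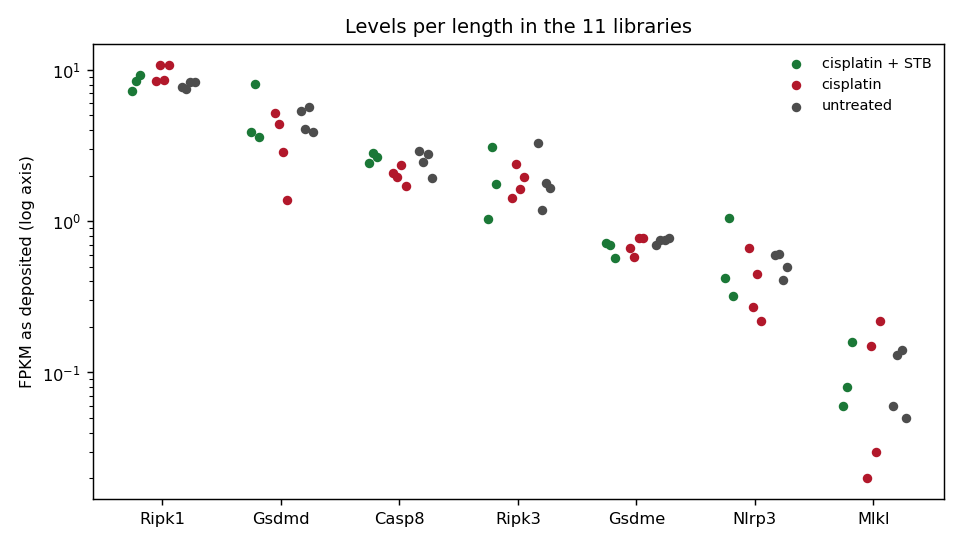
Deposited FPKM (y axis, log scale) of the 7 genes found by symbol (x axis, ordered by their median over 11 libraries). Points are libraries, coloured by group. Ripk1 and Mlkl stand at the ends of the order, with medians of 8.41 and 0.08 FPKM.

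Among the necroptosis genes, Ripk1, the kinase that scaffolds signalling from death receptors, had the only unadjusted p under 0.05 of the members. It was at 29.0, 33.2 and 38.0 CPM in the cisplatin plus STB libraries, at 34.5, 46.2, 35.8 and 46.8 CPM in the cisplatin libraries and at 31.5, 29.7, 33.6 and 34.8 CPM in the untreated libraries. Cisplatin replicates 2 and 4 were above every other library, whereas cisplatin replicate 1 lay below untreated replicate 4, so the groups overlapped. The group means were 33.4 ± 4.5 CPM (SD, n = 3) with cisplatin plus STB, 40.8 ± 6.58 CPM (n = 4) with cisplatin and 32.4 ± 2.28 CPM (n = 4) without treatment. The fitted log2 fold change of Ripk1 for cisplatin against untreated was 0.33 (SE 0.14, 95% interval 0.03 to 0.63), with an unadjusted p of 0.032 and an adjusted p of 0.489 in edgeR. The value for cisplatin plus STB against cisplatin was -0.29 (SE 0.15, 95% interval -0.61 to 0.04, adjusted p = 0.613 in edgeR). Against untreated libraries, cisplatin plus STB gave 0.04 (95% interval -0.28 to 0.37), a value whose sign turned when replicate 3 of the cisplatin plus STB group was left out (-0.06). Ripk1 spans positions 9230635 to 9275900 on the plus strand of its scaffold.

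Casp8, the protease that cleaves RIPK1 and RIPK3, was lower on average in the cisplatin libraries than in both other groups, within the spread between libraries. It was at 6.59, 7.45 and 7.47 CPM with cisplatin plus STB, at 5.74, 5.76, 6.71 and 5.0 CPM with cisplatin and at 8.06, 6.62, 7.54 and 5.41 CPM without treatment. Only cisplatin replicate 3 reached into the range of the cisplatin plus STB libraries, and the untreated libraries covered both ranges almost whole. Casp8 had a log2 fold change of -0.25 (SE 0.2, adjusted p = 0.686 in edgeR) for cisplatin against untreated and 0.31 (SE 0.21, adjusted p = 0.712) for cisplatin plus STB against cisplatin. In fold units, cisplatin over untreated was 0.841, with an interval from 0.626 to 1.13. Casp8 lies at 84133820 to 84152459 on the plus strand. A pair of further rows described as caspase-8-like held a count of 0 in all 11 libraries.

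Ripk3, the kinase that phosphorylates MLKL, showed a spread within groups that exceeded the distance between their means. It was at 1.81, 5.23 and 3.19 CPM with cisplatin plus STB, at 2.56, 4.46, 2.97 and 3.72 CPM with cisplatin and at 5.85, 2.06, 3.12 and 3.01 CPM without treatment, on 28 to 99 counts in a library. Untreated replicate 1 stood highest and cisplatin plus STB replicate 1 lowest, and the groups overlapped. The means were 3.41 ± 1.72 CPM (SD, n = 3) with cisplatin plus STB, 3.43 ± 0.841 CPM (n = 4) with cisplatin and 3.51 ± 1.63 CPM (n = 4) without treatment. Its log2 fold change was -0.03 for cisplatin against untreated, with a 95% interval from -0.87 to 0.81. A change within these bounds remains possible, and the bounds are not a limit of detection. For cisplatin plus STB against cisplatin the interval ran from -0.91 to 0.91. The value for cisplatin against untreated was 0.33 without untreated replicate 1.

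Mlkl, the pseudokinase that permeabilises the membrane, was close to the limit of detection. Its counts were 3, 5 and 9 with cisplatin plus STB, 1, 8, 2 and 13 with cisplatin and 3, 7, 7 and 3 without treatment. The groups summed to 17, 24 and 20 counts in that order. With so few counts Mlkl was not tested and no fold change is given. Ripk3 lies at 20954275 to 20958107 on the plus strand and Mlkl at 106282433 to 106307300 on the minus strand of their scaffolds.

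Of the pore-forming gasdermins, Gsdmd, the substrate of caspase-1, differed most between libraries of the same group. It was at 8.01, 16.0 and 7.59 CPM with cisplatin plus STB, at 10.9, 9.7, 6.11 and 3.05 CPM with cisplatin and at 11, 8.31, 11.6 and 8.2 CPM without treatment. The highest library was cisplatin plus STB replicate 2 and the lowest cisplatin replicate 4, with a ratio of 5.25 between them, and the other 9 lay between 6.11 and 11.6 CPM. The means were 10.5 ± 4.75 CPM (SD, n = 3) with cisplatin plus STB, 7.43 ± 3.55 CPM (n = 4) with cisplatin and 9.77 ± 1.77 CPM (n = 4) without treatment. In the fit, the log2 fold change was -0.39 (SE 0.36, adjusted p = 0.729 in edgeR) for cisplatin against untreated, and -0.13 was its value nearest to 0 when each library was left out in turn. Cisplatin plus STB against cisplatin gave 0.51 (SE 0.39, adjusted p = 0.751 in edgeR). Without cisplatin plus STB replicate 2 this second comparison gave 0.07, and without cisplatin replicate 4 it gave 0.23. Gsdmd lies at 64242674 to 64247343 on the plus strand of its scaffold.

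Gsdme, a pore-forming gasdermin and a known deafness gene in humans, was the most even member. It was at 3.04, 2.85 and 2.47 CPM with cisplatin plus STB, at 2.87, 2.59, 3.38 and 3.48 CPM with cisplatin and at 2.96, 3.12, 3.12 and 3.33 CPM without treatment. All 11 libraries lay within a ratio of 1.41, on counts of 40 to 61. Fitted log2 fold changes of Gsdme were -0.03 (95% interval -0.52 to 0.47) for cisplatin against untreated, -0.14 (-0.68 to 0.39) for cisplatin plus STB against cisplatin and -0.17 (-0.71 to 0.37) for cisplatin plus STB against untreated. These intervals leave room for changes of up to about the size of their bounds in either direction. Gsdme spans 27295368 to 27356534 on the minus strand.

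The remaining gasdermins came from a list of 4, of which 3 had a row and 1 was tested. Pjvk, which encodes pejvakin and is required for hearing in mice and humans, had a log2 fold change of 0.34 (SE 0.22, adjusted p = 0.625 in edgeR) for cisplatin against untreated and -0.14 for cisplatin plus STB against cisplatin. Gsdma had counts of 5, 1 and 0 with cisplatin plus STB, 13, 7, 11 and 4 with cisplatin and 1, 2, 1 and 0 without treatment. All 4 cisplatin libraries of Gsdma were above all 4 untreated ones, on totals of 35 and 4 counts, while cisplatin plus STB replicate 1 lay above cisplatin replicate 4. Gsdma was named after the table was seen, was below the filter and was not tested. Of the tested genes, 6.06% separated in cisplatin against untreated, in either direction, a share that leaves out rows under the filter. Gsdmc had at most 5 counts in a library.

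Nlrp3, the inflammasome sensor of membrane damage and ion flux, resembled Gsdmd in which library stood highest. It was at 2.33, 5.65 and 1.81 CPM with cisplatin plus STB, at 3.75, 1.62, 2.61 and 1.34 CPM with cisplatin and at 3.37, 3.37, 2.28 and 2.9 CPM without treatment. Cisplatin plus STB replicate 2 was again the highest and cisplatin replicate 4 the lowest, and the groups overlapped. Nlrp3 had a log2 fold change of -0.35 (SE 0.42, adjusted p = 0.779 in edgeR) for cisplatin against untreated. Between cisplatin plus STB and cisplatin it was 0.49 (SE 0.45, adjusted p = 0.801 in edgeR), and -0.17 without cisplatin plus STB replicate 2. Nlrp3 lies at 137131280 to 137144091 on the minus strand.

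The row described as ASC, the adaptor between NLRP3 and caspase-1, had 25 to 69 counts in a library. Its means were 2.34 ± 0.783 CPM (SD, n = 3) with cisplatin plus STB, 2.9 ± 0.439 CPM (n = 4) with cisplatin and 3.27 ± 1.08 CPM (n = 4) without treatment. The log2 fold change was -0.17 for cisplatin against untreated, -0.31 for cisplatin plus STB against cisplatin and -0.48 (SE 0.35, adjusted p = 1.0 in edgeR) for cisplatin plus STB against untreated. The caspase-1 row was at 28.1, 23.4 and 28.0 CPM with cisplatin plus STB, at 36.0, 19.8, 28.0 and 21.1 CPM with cisplatin and at 31.8, 22.1, 24.4 and 43.1 CPM without treatment. Untreated replicate 4 stood highest, and the cisplatin plus STB libraries fell inside the ranges of both other groups. Its log2 fold change was -0.21 (95% interval -0.71 to 0.29) for cisplatin against untreated, and 0.01 without untreated replicate 4. It was 0.02 (-0.53 to 0.56) for cisplatin plus STB against cisplatin.

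**Figure D3:**
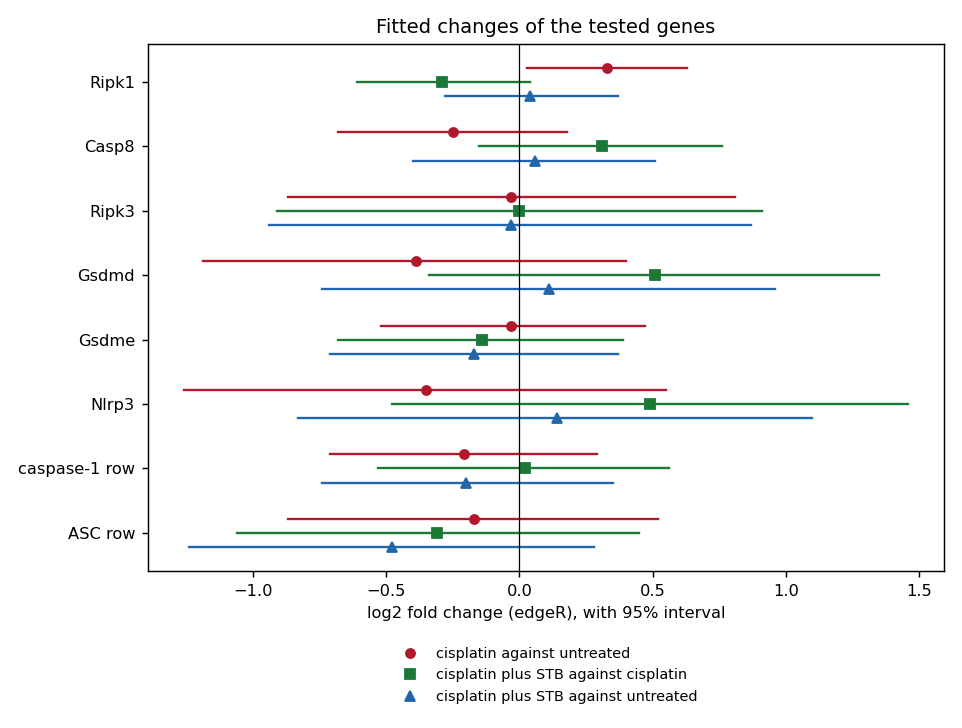
Fitted log2 fold changes (x axis) with their 95% intervals for the 6 tested members and the rows described as caspase-1 and ASC (y axis), in the 3 comparisons. A positive value means a higher level in the group named first. Of the intervals, only that of Ripk1 for cisplatin against untreated, 0.03 to 0.63, leaves out 0.

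The caspase-1 row lies among 4 caspase rows, grouped here as inflammatory caspases. They occupy 188 kb of 1 scaffold, from 31250709 to 31438607, with 0 other genes between them. Along the scaffold they are described as caspase-4, caspase-1, caspase-13-like and inactive caspase-12-like. Reads of such related genes can be split between rows or lost, and the sources used here do not say how the counting treated them, which leaves these values uncertain. The caspase-4 row, a sensor of bacterial lipopolysaccharide in humans, had at most 4 counts in a library. The inactive caspase-12-like row had 5, 3 and 0 counts with cisplatin plus STB, 9, 8, 1 and 0 with cisplatin and 0, 1, 0 and 0 without treatment.

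The caspase-13-like row (LOC134477658, 31357572 to 31379680 on the plus strand) is named because of its values, after these were seen. It was at 2.39, 2.75 and 4.4 CPM with cisplatin plus STB, at 1.5, 2.26, 0.95 and 1.04 CPM with cisplatin and at 4.2, 3.37, 5.4 and 5.74 CPM without treatment. Every cisplatin library was below every library of the other groups, while the cisplatin plus STB and untreated libraries overlapped. Of all genes tested, 6.06% separated without overlap in cisplatin against untreated and 7.54% in cisplatin plus STB against cisplatin, in either direction. The log2 fold change of the caspase-13-like row for cisplatin against untreated was -1.7 (SE 0.35, 95% interval -2.46 to -0.94), with an unadjusted p of 0.00035 and an adjusted p of 0.44 in edgeR. DESeq2 called the row in this comparison, with an adjusted p of 0.00743, among 33 genes called in all. It was the only value among those recomputed that crossed the threshold under an alternative. For cisplatin plus STB against cisplatin the log2 fold change was 1.14 (SE 0.37, adjusted p = 0.411 in edgeR), and DESeq2 gave an adjusted p of 0.189. Its neighbour, the caspase-1 row, overlapped between all groups.

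**Figure D4:**
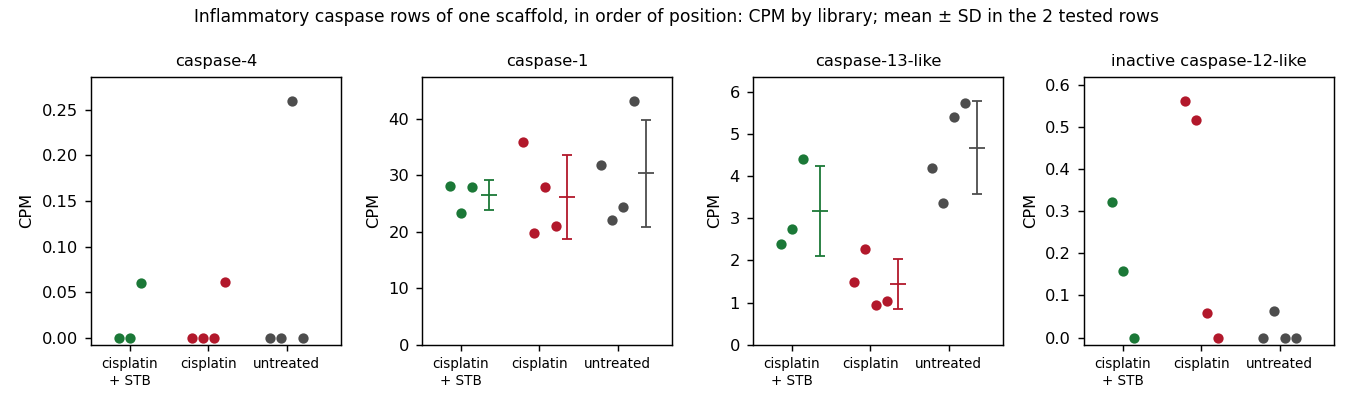
CPM by library (y axis) and group (x axis) in the 4 neighbouring rows grouped here as inflammatory caspases, in order of position along their scaffold. Points are libraries, and the bars in the caspase-1 and caspase-13-like panels give the mean ± SD (n = 3 for cisplatin plus STB, n = 4 for the other groups). In the caspase-13-like panel the 4 cisplatin libraries, up to 2.26 CPM, lie under the lowest cisplatin plus STB library at 2.39 CPM and the lowest untreated library at 3.37 CPM.

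The rest of the pathway was read from 7 lists, which hold 103 genes, of which 92 had a row by symbol and 83 were tested. edgeR called 0 of the 83 in each of the 3 comparisons. At an unadjusted p under 0.05 the count was 1 higher and 3 lower in cisplatin against untreated, 2 higher and 6 lower in cisplatin plus STB against cisplatin, and 0 higher and 1 lower in cisplatin plus STB against untreated. Over all genes tested, in either direction, these shares were 9.71%, 9.03% and 1.07%. DESeq2 called 0 of them in each comparison, the rows identified by description not being counted here. The median log2 fold change was 0.09, -0.08 and -0.0 in these comparisons.

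The inflammasome sensors and partners counted 15 tested genes of 26 listed, with a median log2 fold change of 0.02 for cisplatin against untreated and -0.02 for cisplatin plus STB against cisplatin. Txnip, whose product binds NLRP3, was at 339 to 521 CPM with cisplatin plus STB, 521 to 563 CPM with cisplatin and 399 to 499 CPM without treatment. The cisplatin libraries lay above all untreated ones, and the log2 fold change was 0.28 (SE 0.14, adjusted p = 0.525 in edgeR). Over all genes tested, 6.06% separated in this comparison, in either direction. The genes of the lists were named for a small unadjusted p, which favours such separation. Naip, a sensor of bacterial flagellin and secretion proteins, had only 6 to 18 counts in a library. Its mean was 0.419 CPM with cisplatin plus STB, 0.863 CPM with cisplatin and 0.91 CPM without treatment, and its libraries with cisplatin plus STB lay below all others (log2 fold change -1.04 against cisplatin, adjusted p = 0.518, and -1.12 against untreated, adjusted p = 1.0, in edgeR). Over all genes tested, 7.54% separated in cisplatin plus STB against cisplatin and 2.41% in cisplatin plus STB against untreated, in either direction. Naip overlaps Smn1 on the other strand, and reads of the pair cannot be told apart where counting ignored the strand.

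Of the cytokines that caspase-1 matures, Il18 was well covered and Il1b was not. Il18 was at 17.7, 15.8 and 24.7 CPM with cisplatin plus STB, at 16.7, 47.5, 22.1 and 20.9 CPM with cisplatin and at 22.4, 14.7, 20.5 and 6.34 CPM without treatment. Cisplatin replicate 2 stood highest and untreated replicate 4 lowest, and the other libraries of the 3 groups overlapped. The log2 fold change of Il18 was 0.75 (SE 0.4, adjusted p = 0.564 in edgeR) for cisplatin against untreated, and 0.33 without cisplatin replicate 2. Il1b had 1 to 25 counts in a library, with a log2 fold change of 0.08 and a 95% interval from -1.66 to 1.82. The rows described as AIM2, a sensor of DNA in the cytosol, and GBP5 had 95% intervals that held 0 in all 3 comparisons.

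The other caspases counted 6 tested genes of 9 listed, with medians of 0.11 for cisplatin against untreated, -0.07 for cisplatin plus STB against cisplatin and 0.07 for cisplatin plus STB against untreated. Casp9, the caspase of the apoptosome, was at 36.0 ± 5.19 CPM (SD, n = 3) with cisplatin plus STB, 39.4 ± 2.62 CPM (n = 4) with cisplatin and 35 ± 2.89 CPM (n = 4) without treatment. Its log2 fold change for cisplatin against untreated was 0.17 (SE 0.12, adjusted p = 0.641 in edgeR). Casp2 and Casp10 had values between -0.0 and 0.12 on the log2 scale in the 3 comparisons.

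The apoptosome and mitochondrial factors counted 9 tested genes of 10 listed. Endog, a mitochondrial nuclease, was at 2.52, 2.8 and 4.34 CPM with cisplatin plus STB, at 3.68, 5.37, 8.73 and 8.66 CPM with cisplatin and at 4.2, 3.44, 3.12 and 3.22 CPM without treatment. Cisplatin replicates 2, 3 and 4 were above every other library and replicate 1 was not. Its log2 fold change was 0.92 (SE 0.31, adjusted p = 0.448 in edgeR) for cisplatin against untreated and -1.04 (SE 0.34, adjusted p = 0.415) for cisplatin plus STB against cisplatin. Endog overlaps Spout1 on the other strand in the deposited coordinates. Xiap, an inhibitor of caspases, had 0.25 and -0.34 in the same comparisons.

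Death receptors and their ligands counted 8 tested genes of 10 listed, with a median of 0.29 for cisplatin against untreated and -0.32 for cisplatin plus STB against cisplatin. Tnfrsf1a, the TNF receptor that recruits RIPK1, was at 30.9, 41.4 and 36.0 CPM with cisplatin plus STB, at 38.6, 95.4, 42.6 and 34.3 CPM with cisplatin and at 36.4, 34.9, 40.2 and 38.1 CPM without treatment. Cisplatin replicate 2 stood apart and the other 10 libraries overlapped. The log2 fold change for cisplatin against untreated was 0.5 (SE 0.27, adjusted p = 0.574 in edgeR), and 0.05 was the lowest value when libraries were left out one at a time. Tnfrsf1b, the second TNF receptor, was also highest in cisplatin replicate 2, at 25.4 CPM, and had -0.94 (SE 0.41, adjusted p = 0.533 in edgeR) for cisplatin plus STB against cisplatin, which was -0.34 without that library. Tnfrsf25, another death domain receptor, was at 62.3 to 66.6 CPM with cisplatin plus STB, 39.6 to 60.6 CPM with cisplatin and 54.6 to 76.8 CPM without treatment. Its log2 fold change was -0.33 (SE 0.15, adjusted p = 0.512 in edgeR) for cisplatin against untreated. The cisplatin plus STB libraries of Tnfrsf25 lay above all cisplatin ones, with a log2 fold change of 0.27 (SE 0.16, adjusted p = 0.664 in edgeR). Over all genes tested, 7.54% separated in cisplatin plus STB against cisplatin, in either direction.

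All 27 listed regulators of the RIPK1 complex and its ubiquitin chains were tested, with medians of 0.1 for cisplatin against untreated and -0.08 for cisplatin plus STB against cisplatin. Birc3, the ubiquitin ligase cIAP2 of this complex, was at 8.19 to 10.1 CPM with cisplatin plus STB, at 10.6, 58.7, 4.27 and 7.44 CPM with cisplatin and at 6.96 to 9.23 CPM without treatment. Cisplatin replicate 2 alone carried the fitted log2 fold change of 1.36 for cisplatin against untreated (SE 0.69, adjusted p = 0.546 in edgeR), which was -0.08 without it. Ikbkg, the ubiquitin-binding subunit NEMO of the IKK complex, was at 31.0 to 39.0 CPM with cisplatin plus STB and 41.2 to 46.2 CPM with cisplatin, with no overlap, and at 32.2 to 42.0 CPM without treatment. Of all genes tested, 7.54% separated in cisplatin plus STB against cisplatin, in either direction. The log2 fold change of Ikbkg for cisplatin plus STB against cisplatin was -0.29 (SE 0.13, adjusted p = 0.541 in edgeR), and its row overlaps a gene on the other strand. Cflar, the caspase-8 partner cFLIP, had values from -0.18 to -0.09 in the 3 comparisons.

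All 17 necroptosis partners were tested, with medians of 0.06, -0.08 and 0.06 for cisplatin against untreated, cisplatin plus STB against cisplatin and cisplatin plus STB against untreated. Ticam1, which encodes TRIF, the Toll-like receptor adaptor that binds RIPK1 and RIPK3, was at 6.4, 6.29 and 3.55 CPM with cisplatin plus STB, at 3.37, 2.97, 2.26 and 2.38 CPM with cisplatin and at 4.34, 4.87, 6.24 and 5.03 CPM without treatment. All cisplatin libraries were below all others. Separation in either direction was found in 6.06% of all genes tested for cisplatin against untreated and 7.54% for cisplatin plus STB against cisplatin. The log2 fold change of Ticam1 was -0.9 (SE 0.26, adjusted p = 0.44 in edgeR) for cisplatin against untreated and 0.98 (SE 0.28, adjusted p = 0.369 in edgeR) for cisplatin plus STB against cisplatin. DESeq2 gave adjusted p-values of 0.129 and 0.102 in these comparisons. Tlr3, a receptor of double-stranded RNA that signals through TRIF, averaged 5.71 CPM with cisplatin plus STB, 4.66 CPM with cisplatin and 7.81 CPM without treatment, and its log2 fold change for cisplatin against untreated was -0.74 (SE 0.29, adjusted p = 0.481 in edgeR). Tlr4, the lipopolysaccharide receptor that also uses TRIF, had 0.64 (SE 0.39) for cisplatin against untreated and -0.94 (SE 0.43) for cisplatin plus STB against cisplatin, with adjusted p-values of 0.602 and 0.552 in edgeR. Its cisplatin plus STB libraries were at 6.72, 6.71 and 19.1 CPM, and the value against cisplatin was -1.63 without the third of these.

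Gsdmd, Nlrp3 and Casp1 are expressed in leukocytes, and the levels of leukocyte markers were therefore set beside them. Of 8 pan-leukocyte markers, among them Ptprc and Itgb2, 6 had a row and none was at 0 in a group. Their summed level was 39.2, 57.9 and 31.7 CPM with cisplatin plus STB, 43.6, 51.6, 33.5 and 18.6 CPM with cisplatin and 51.2, 41.7, 39.3 and 42.3 CPM without treatment. The highest and lowest libraries were cisplatin plus STB replicate 2 and cisplatin replicate 4, the same as for Gsdmd and Nlrp3. In that order, these libraries also differed in summed spiral ganglion neuron markers (4190 and 642 CPM) and erythroid markers (105 and 14.6 CPM). Hair cell markers (1160 and 2310 CPM) and supporting cell markers (4560 and 7920 CPM) differed the other way. The supporting cell values were the lowest and the highest of all libraries. The spiral ganglion neuron sum was highest in untreated replicate 2 (5310 CPM), and the erythroid sum was lowest in cisplatin replicate 2 (13.5 CPM). The cause of these differences was not tested. Macrophage markers (14 of 15 with a row, none at 0) summed to 135 to 202 CPM with cisplatin plus STB, 134 to 257 CPM with cisplatin and 167 to 176 CPM without treatment. Neutrophil markers (8 of 13 with a row) summed to 6.87 to 17.1, 5.18 to 18 and 7.05 to 13.4 CPM in that order of groups, with Mmp8 at 0 with cisplatin and without treatment and Mpo at 0 without treatment. Macrophage and neutrophil sums were each highest in cisplatin replicate 2, where Gsdmd was at 9.7 and Nlrp3 at 1.62 CPM, and lowest in cisplatin replicate 4. Lymphocyte markers (9 of 12 with a row) summed to at most 2.06 CPM in a library, with Ms4a1 at 0 in both treated groups.

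Across the 11 libraries, Gsdmd followed the summed pan-leukocyte level with a Pearson r of 0.926 and a Spearman rho of 0.818 on the log2 scale. The two-sided permutation p was 0.00029 for r and 0.00325 for rho, and adjusted over the 36 relations computed these were 0.0104 and 0.117. Without the 2 libraries farthest from the median marker level r was 0.672. Nlrp3 had an r of 0.686 and a rho of 0.618 with the same sum (permutation p = 0.0187 and 0.0477, adjusted 0.185 and 0.513), and its r without the 2 farthest libraries was 0.217, so that relation rests on them. The caspase-1 row had an r of 0.173 and a rho of 0.0455 (permutation p = 0.613 and 0.903). The part of leukocyte RNA in the group values of Gsdmd and Nlrp3 was not tested.

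**Figure D5:**
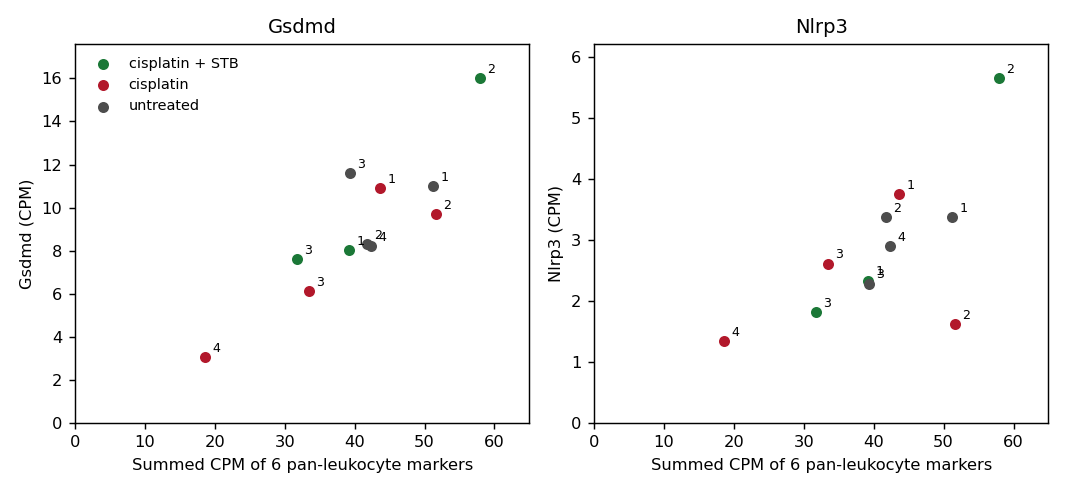
CPM of Gsdmd and of Nlrp3 (y axes) against the summed CPM of 6 pan-leukocyte markers (x axes) in the 11 libraries, coloured by group and numbered by replicate. Cisplatin plus STB replicate 2, with a marker sum of 57.9 CPM, has the highest value of both genes, and cisplatin replicate 4, with 18.6 CPM, the lowest.

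Among the 6 tested members and the rows described as caspase-1 and ASC, Gsdmd and Nlrp3 had the highest r of the 28 pairs (0.714, rho 0.591), which was 0.195 without the 2 libraries with the farthest Gsdmd values. Their permutation p was 0.0133 for r and 0.0604 for rho, or 0.185 and 0.513 adjusted over the 36 relations. Nlrp3 and Ripk1 had the lowest r, at -0.682 (rho -0.627), with an adjusted permutation p of 0.185 for r and 0.513 for rho. None of the 28 pairs passed the adjustment.

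The genes whose log2 CPM followed a member most closely were sought among 13231 genes with a symbol and a mean of at least 1 CPM, and are given as a description with no test, since each is the highest of many r values over the same 11 libraries. For Gsdmd they were Lsp1 (r 0.963), a leukocyte cytoskeletal protein, Znf839 (0.949) and P2rx7 (0.945), the ATP-gated channel known as a trigger of the NLRP3 inflammasome. Without the 2 libraries with the farthest Gsdmd values, r was 0.882 for Lsp1 and 0.811 for P2rx7. For Nlrp3 they were Gripap1 (0.947), Meis3 (0.934) and Col12a1 (0.934), and for the caspase-1 row Cytip (0.947), Mindy1 (0.921) and Cyp7a1 (0.902). Ripk1 was closest to Ctnna1 (0.967), which encodes alpha-catenin, Arf1 (0.95) and Gyg1 (0.943). Casp8 was closest to Tspan18 (0.913), Gsdme to Atosb (0.874), Ripk3 to Timm22 (0.871) and the ASC row to Slc22a5 (0.877).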

How the data were processed

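Per the labels' protocols, poly(A) RNA was enriched or ribosomal RNA removed before strand-keeping paired-end sequencing. Which of these each library had, the genome build, and whether counting used strand are not stated in the sources used here. The submitters' processing notes name HTSeq 0.6.1, HISAT2 2.2.1 and cutadapt 1.9.1 without their roles. Per the file headers, the deposited table holds raw counts, which the authors did not normalize, and FPKM, which the authors scaled by exonic length. FPKM entered no test. Positions are those of the deposited table; the RefSeq genes of mCavPor4.1 held 21478 of the 21481 symbols, at the same start and end. A total of 5273 genes had only a LOC symbol.

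Counts were fitted with edgeR 4.0.16 in R 4.3.3: filterByExpr by group left 15384 genes, libraries were scaled by TMM, and 1 robust quasi-likelihood model of all 11 libraries had the group as its only term. P-values were adjusted by Benjamini-Hochberg over all genes tested, and an adjusted p under 0.05 was called. The biological coefficient of variation common to all genes was 0.276. CPM values use TMM library sizes, and likeness was computed on log2 CPM with a prior count of 2. Correlation p-values came from 100000 permutations of the libraries. Simulated counts with 200 changed genes served to check the code of the fit and give no measure of power for the member genes. The genes named are all members and, from each list per comparison, up to 3 tested genes with the smallest unadjusted p. Exceptions are Gsdma, Gsdmc, Il1b and rows identified by description, named after the table was seen. Members and lists were chosen with earlier results of these data known. Alternatives were RLE factors, no filter, DESeq2 1.42.0, only the groups compared, a replicate block, and each library left out in turn. Some genes of the lists are counted but not reported by name here.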

Additional observations from a re-analysis of the deposited data

Results flagged for a closer look

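In groups of 4 libraries, a single library stood far from the other 3 in 5 cases among the genes named, measured by its gap to the nearest of the others over the whole range of the group. Chance gives such a gap in about 1 in 20 groups, and 122 groups were examined. Birc3 was at 58.7 CPM in cisplatin replicate 2, against 4.27 to 10.6 CPM in the other cisplatin libraries. Tnfrsf1a was at 95.4 CPM in the same library, against 34.3 to 42.6 CPM in the others. Cflar was at 114 CPM in cisplatin replicate 4, against 128 to 129 CPM in the others. Fas, a death receptor, was at 5.08 CPM in untreated replicate 4, against 2.99 to 3.17 CPM in the others. Casp2 was at 35.7 CPM in untreated replicate 3, against 30.1 to 30.6 CPM in the others. None of the member genes was among them.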

How the results depend on the processing

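The count of members called was 0 in each comparison under all 5 other settings and with each of the 11 libraries left out, and so was the count over the pathway lists. Of 1440 values recomputed for 90 results, 1409 kept their direction and their side of the threshold and 30 turned their sign; 1, the caspase-13-like row for cisplatin against untreated, passed the threshold with DESeq2 (log2 fold change -1.7, adjusted p = 0.00743; 0.138 to 0.714 in edgeR with libraries left out).

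With libraries left out one at a time, the log2 fold changes for cisplatin against untreated that turned sign ranged from -0.08 to 0.06 for Gsdme, -0.22 to 0.33 for Ripk3, -0.4 to 0.01 for the caspase-1 row, -0.37 to 0.02 for the ASC row and -0.08 to 1.7 for Birc3. For cisplatin plus STB against cisplatin they ranged from -0.17 to 0.79 for Nlrp3, -0.11 to 0.19 for the caspase-1 row, -0.29 to 0.07 for Pjvk and -1.54 to 0.24 for Birc3. Ripk3 ranged from -0.45 to 0.3 in this comparison, around a value of -0.0 that has no direction to turn. For cisplatin plus STB against untreated they ranged from -0.05 to 0.13 for Casp8, -0.32 to 0.3 for Gsdmd, -0.53 to 0.42 for Nlrp3, -0.06 to 0.14 for Ripk1, -0.48 to 0.32 for Ripk3, -0.32 to 0.02 for the caspase-1 row, -0.36 to 0.05 for Fas and -0.07 to 0.98 for Hsp90aa1.

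The labels do not say whether the replicate numbers pair the libraries. Deviations of same-numbered libraries from their group means had correlations between -0.308 and 0.358, and not every library correlated best with its own number. Differently numbered pairs lay between -0.477 and 0.551. With 3 or 4 libraries in a group, these values cannot decide the question. With the replicate number as a block the members called stayed at 0, and for cisplatin plus STB against untreated Casp8 was at -0.02, Gsdmd at -0.18 and Nlrp3 at -0.05, turned in sign from the fit without the block; the cause was not tested. Depth limits Mlkl, Gsdma, Naip and Il1b, with at most 25 counts in a library.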
